A study of Homo sapiens with 20 samples.

Results

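The genes described here encode the SRSF and HNRNP families of splicing factors. They were taken by name as every protein-coding gene whose symbol is SRSF followed by a number or begins with HNRNP, which gave 39 genes of 20046 annotated protein-coding genes: 12 SRSF genes and 27 HNRNP genes. They carry 376 of the 191106 matched transcripts, of which 197 are annotated as protein_coding, 89 as retained_intron, 53 as nonsense_mediated_decay (NMD) and 37 as coding-gene transcripts with no defined reading frame.

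The samples are 20 RNA-seq libraries of NGP, an established neuroblastoma cell line with MYCN amplification. In 10 of them the cells had received 8 µM nutlin-3, a small molecule that blocks the binding of MDM2 to the p53 protein, and in the other 10 ethanol, its vehicle. The duration of the treatment is not given in the sources used here, and all 20 libraries come from the same line in culture, so they describe no other cells. In bulk RNA, fewer cells of a type and less RNA per cell cannot be told apart.

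SR proteins, the products of the SRSF genes, bind enhancers in exons through RNA recognition motifs and recruit the spliceosome through domains rich in arginine and serine. The hnRNPs are abundant nuclear RNA-binding proteins that coat nascent transcripts and often act through splicing silencers. Many genes of both families are known to control their own level by splicing into transcripts with a premature stop codon, which nonsense-mediated decay removes, or by keeping an intron that holds the RNA in the nucleus.

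The libraries held 14455477 to 19532971 estimated counts in vehicle and 15078052 to 17442896 in nutlin, and matched transcripts took 96.7 to 96.8% and 95.7 to 96.0% of them. All 10 neuroblastoma markers examined were above a mean of 1 CPM (read counts scaled to a common library size), their summed level being 8088 to 9225 CPM in vehicle and 7752 to 9321 CPM in nutlin. Leukocyte, epithelial and endothelial markers (3 of each) had no member at a mean of 1 CPM, and 2 of 3 fibroblast markers did, at summed levels of 23.5 to 28.2 CPM in vehicle and 38.4 to 51.3 CPM in nutlin. The part of those markers in the results was not tested. MDM2, whose gene p53 induces, rose from a median of 250.0 CPM to 5659 CPM (log2 fold change 4.51 ± 0.07 SE), and CDKN1A, the p53-induced inhibitor of cyclin-dependent kinases, from 35.4 to 1704 CPM (5.68 ± 0.14 SE).

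For 7 members the results below turn on transcripts of the NMD class, and the premature or shared stop codons that place them there are shown first. Each line gives the last 30 bases of the reading frame, 5′ to 3′ on the strand of the transcript, with the stop codon in capitals, as read from the GENCODE transcripts on GRCh38.
SRSF7-204: aggtttcttcgtttgagtcagtcgcctTGA
SRSF6-202: gccatgacgacagcagccttttgccatTAG
SRSF3-203: accatcatgtctcttctcaccaccctcTGA
SRSF1-204: tttgaccagaattggatacagtggtctTAA
SRSF4-205: ggagaggttcggttcttacaaggaaaaTGA
HNRNPDL-202: aatcaccaaaacaattaccagccatacTAA
SRSF2-204: cctgaagaggaaggagcggtgtcctctTAA

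The first 5 of these stop codons lie in bases that the canonical transcript of the gene does not use as exon. In SRSF3-203 the stop codon, at chr6:36599852-36599854, is in a 456-base exon (chr6:36599821-36600276) that is absent from the canonical SRSF3-202, and the reading frame ends after 124 codons instead of 164. In SRSF6-202 it is at chr20:43459302-43459304 in a 268-base exon (chr20:43459153-43459420), and the frame ends after 135 codons instead of 344. SRSF7-204 has its stop at chr2:38749319-38749321 in a 449-base exon (chr2:38748898-38749346), after 137 codons instead of 238. The 175-base exon of SRSF4-205 (chr1:29165890-29166064) ends the frame after 160 codons instead of 494, at chr1:29166009-29166011. In SRSF1-204 the stop at chr17:58005747-58005749 is in a 1051-base exon (chr17:58004923-58005973), of which 200 bases are outside the canonical exons, and it ends the frame after 201 codons instead of 248. HNRNPDL-202 and SRSF2-204 differ from these: they use the stop codon of the canonical transcript, at chr4:82426059-82426061 and chr17:76736161-76736163, and have 2 and 3 exon junctions downstream of it, where the canonical HNRNPDL-201 and SRSF2-202 have 1 each. The reading frame of SRSF2-204 has 221 codons, as in SRSF2-202, while that of HNRNPDL-202 has 301 instead of 420. The last exon junction lies 127 bases past the stop in HNRNPDL-202 and 209 bases past it in SRSF2-204, against 534 to 824 bases in the first 5. All 7 transcripts have the same length in the deposited files and in the annotation used here, which HNRNPD-206, not shown, does not.

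At the level of whole genes, members of both families fell in nutlin. Of the 39 genes, 35 had at least 1 count in each condition and were tested, and 32 of them fell and 1 rose at 5% FDR by the edgeR quasi-likelihood test with Benjamini-Hochberg adjustment. Over all 27697 genes tested, 26.5% fell and 32.3% rose, and over the 17351 protein-coding genes tested 38.5% fell and 32.4% rose. The median log2 fold change was -0.79 over the 35 members, -0.72 over the 12 SRSF genes and -0.80 over the 23 HNRNP genes tested, beside 0.19 over all genes and -0.01 over protein-coding genes. Over the 8990 protein-coding genes at least as abundant as the lowest member described with values here, it was -0.24. In CPM, every nutlin library was below every vehicle library for 30 of the 35, which held for 16.6% of all genes. The percentages over all genes and over protein-coding genes were not matched for the abundance of the members. The families' summed estimated counts went from a mean of 0.333% ± 0.013 (SD, n = 10) to 0.249% ± 0.005 of all counts for SRSF and from 1.44% ± 0.03 to 1.02% ± 0.02 for HNRNP, with no overlap of the groups.

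**Figure D1:**
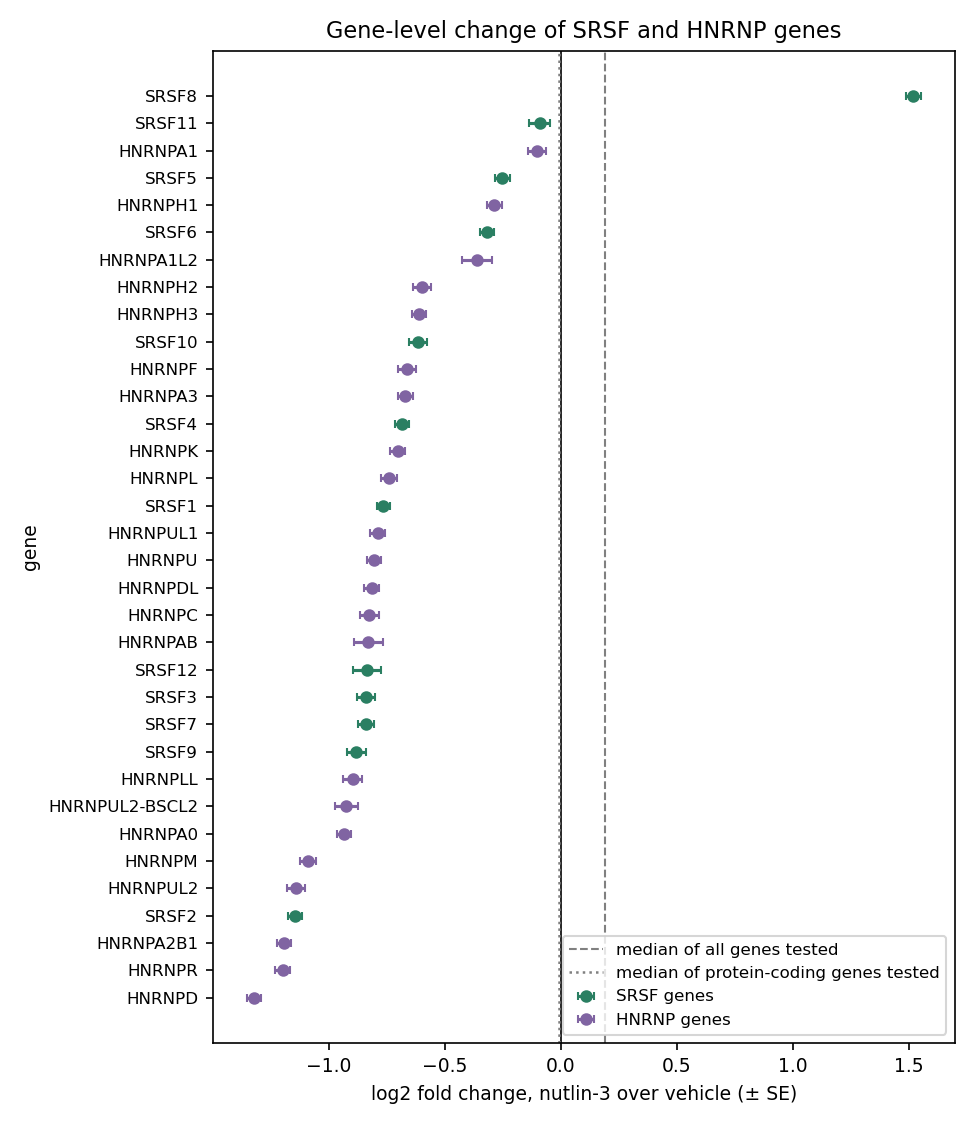
Log2 fold change, nutlin-3 over vehicle, with its standard error, for the 34 members with a mean of at least 1 CPM, beside the medians of all genes (dashed) and of protein-coding genes (dotted). SRSF8 at 1.52 is alone on the right, and HNRNPD at -1.32 is the lowest.

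Among the SR proteins, SRSF2 (chromosome 17), which also acts in transcription elongation, had the largest fall. It ran from 580 to 663 CPM in vehicle (median 608) and from 266 to 284 CPM in nutlin (median 277), a log2 fold change of -1.15 ± 0.03 (SE, adjusted p = 4.86e-24). The groups lay far apart. SRSF9, a short SR protein, went from 211 to 248 CPM (median 229) to 111 to 149 CPM (median 123, log2 fold change -0.88 ± 0.04). SRSF7, an SR protein that also promotes mRNA export, lay at 387 to 474 CPM in vehicle (median 404) and at 222 to 239 CPM in nutlin (median 231, log2 fold change -0.84 ± 0.03). SRSF3, the smallest SR protein and likewise an export adaptor, lay at 491 to 591 CPM (median 517) and at 269 to 323 CPM (median 291, log2 fold change -0.84 ± 0.04). In each of these 3 genes the highest nutlin library was below the lowest vehicle library.

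SRSF12, a low-abundance SR protein, ran from 13.8 to 18.5 CPM in vehicle (median 15.5) and from 7.70 to 9.92 CPM in nutlin (median 8.71, log2 fold change -0.83 ± 0.06). SRSF1, the founding SR protein, ran from 557 to 638 CPM (median 596) and from 347 to 358 CPM (median 353, log2 fold change -0.76 ± 0.03). Its 10 nutlin libraries were tightly grouped. SRSF4 was at 202 to 222 CPM (median 210.4) and at 122 to 138 CPM (median 132, log2 fold change -0.68 ± 0.03), and SRSF10, which represses splicing when dephosphorylated, at 268 to 341 CPM (median 300.0) and at 184 to 207 CPM (median 197, log2 fold change -0.62 ± 0.04). The groups did not overlap in any of these 4 genes. SRSF6 and SRSF5 fell less, with log2 fold changes of -0.32 ± 0.03 and -0.25 ± 0.03, still without overlap in CPM. In TPM, which accounts for transcript length, both overlapped. SRSF6 was at 89.6 to 109 TPM in vehicle and 80.1 to 104 TPM in nutlin, and SRSF5 at 255 to 318 and 217 to 256 TPM. Over 9 alternatives both kept their call, with log2 fold changes from -0.32 to -0.12 for SRSF6 and from -0.26 to -0.18 for SRSF5. SRSF11 was the SRSF gene that did not pass the test: its log2 fold change was -0.09 ± 0.04 (adjusted p = 0.0806), and its nutlin range of 226 to 251 CPM lay inside the vehicle range of 218 to 286 CPM.

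SRSF8 went the other way. Its gene (chr11:95066919-95071225) arose as a retroposed copy of SRSF2 and has a single annotated transcript class. It ran from 50.1 to 56.1 CPM in vehicle (median 53.8) and from 143 to 162 CPM in nutlin (median 155), a log2 fold change of 1.52 ± 0.03 (SE, adjusted p = 1.27e-25). The groups did not overlap, which with nutlin higher was so for 12.2% of all genes tested. No annotated protein-coding or lncRNA gene overlaps it. Of its 3 nearest protein-coding genes, ENDOD1, 18621 bases downstream, rose from a median of 5.77 to 9.13 CPM (log2 fold change 0.64 ± 0.08 SE). KDM4E, 39323 bases upstream, was at 0 in all 10 vehicle libraries and at 1.62 to 2.53 CPM in the nutlin libraries, and was not tested for want of a count in vehicle. KDM4F, 15581 bases upstream, was at or near 0 in both conditions. Reads common to SRSF2 and SRSF8 can be divided between them by kallisto, which was not tested.

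**Figure D2:**
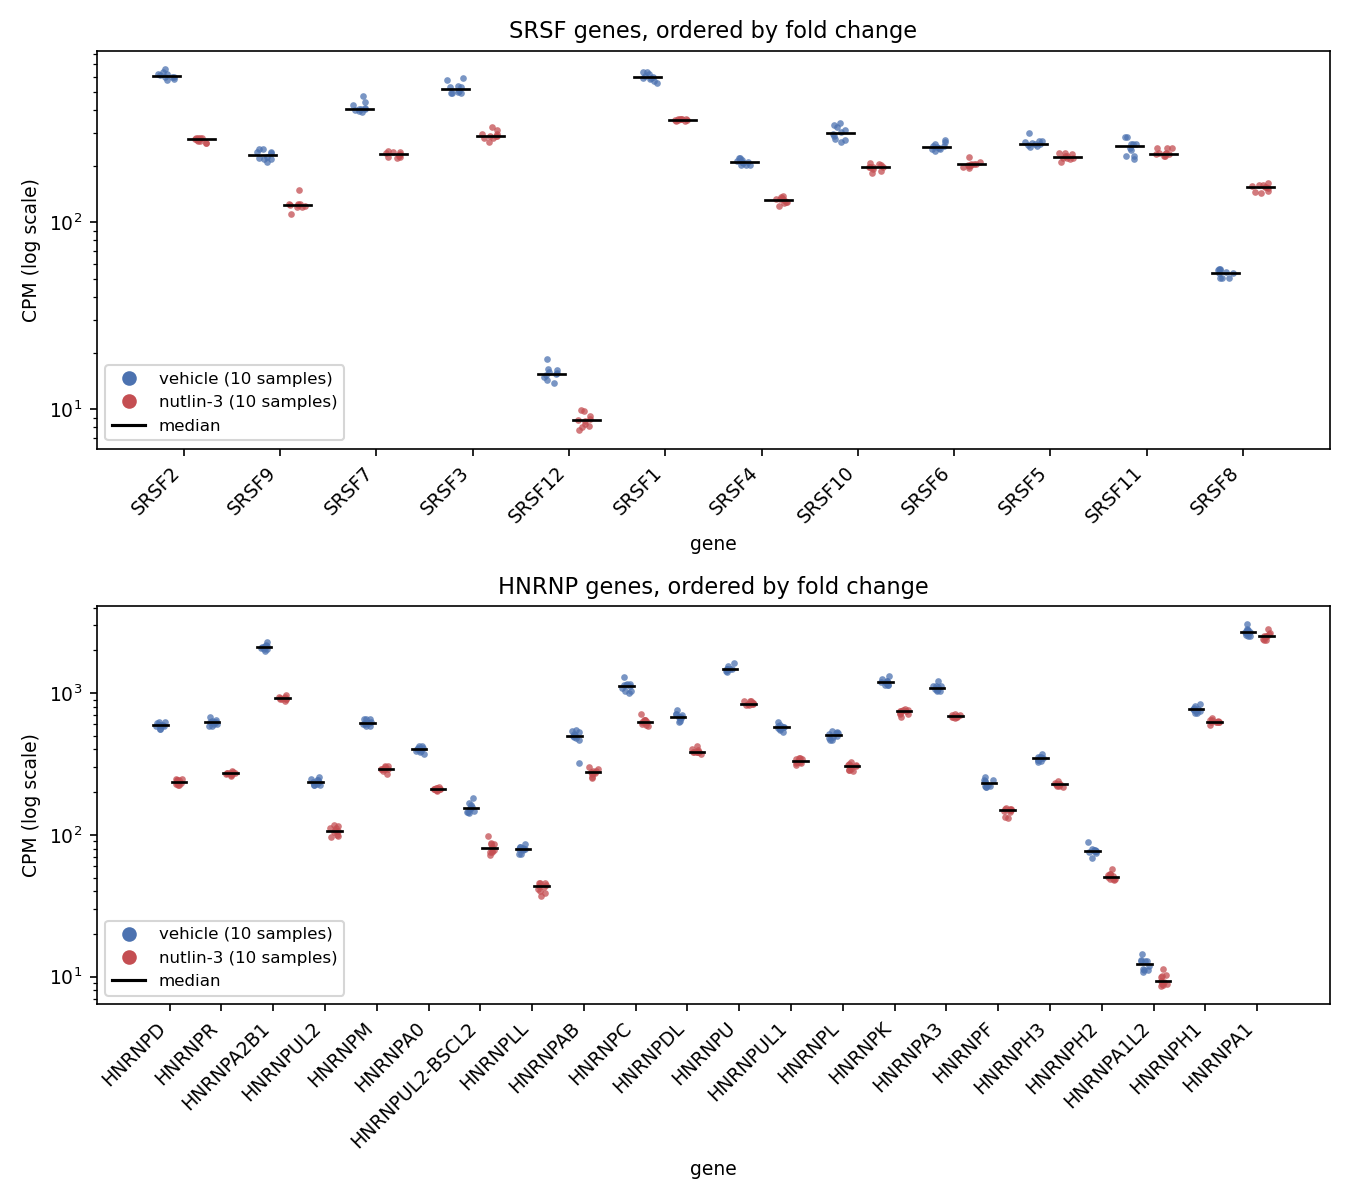
CPM of each of the 20 libraries on a log axis for the SRSF genes (top) and HNRNP genes (bottom), ordered by fold change, with bars at the group medians. The groups are separate in most genes and overlap in SRSF11, HNRNPA1 and HNRNPA1L2.

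Among the hnRNPs, HNRNPD, which binds AU-rich elements and is known for control of mRNA decay, fell furthest. It ran from 558 to 623 CPM in vehicle (median 592) and from 225 to 247 CPM in nutlin (median 237), a log2 fold change of -1.32 ± 0.03 (SE, adjusted p = 4.2e-25). Its relative HNRNPDL was at 629.6 to 759.9 CPM (median 679.9) and at 374 to 421 CPM (median 384, log2 fold change -0.82 ± 0.03). HNRNPAB, which belongs to the same group, was at 319.6 to 552 CPM (median 499) and at 251 to 301 CPM (median 277, log2 fold change -0.83 ± 0.06). HNRNPAB was the least uniform of the 3 in vehicle, through replicate 4 at 319.6 CPM, and its log2 fold change was -0.88 without that library.

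The A proteins, which carry paired RNA recognition motifs and often silence exons, did not move alike. HNRNPA2B1 ran from 1991 to 2273 CPM in vehicle (median 2106) and from 879 to 976 CPM in nutlin (median 917, log2 fold change -1.19 ± 0.03), HNRNPA0 from 370.3 to 426 CPM (median 403) and from 203 to 217 CPM (median 211, log2 fold change -0.93 ± 0.03). HNRNPA3 lay at 1032 to 1212 CPM (median 1082) and at 666 to 712 CPM (median 684, log2 fold change -0.67 ± 0.03). HNRNPA1, by TPM the most abundant member in both conditions (median 2206 and 2028 TPM), stayed close to its vehicle level. It ran from 2514 to 3049 CPM in vehicle (median 2702) and from 2358 to 2812 CPM in nutlin (median 2521), and the groups overlapped. Its log2 fold change of -0.10 ± 0.04 passed the test (adjusted p = 0.0233) but failed it under 6 of 9 alternatives, whose values ran from -0.10 to -0.02. The intronless HNRNPA1L2 fell by 0.36 ± 0.06 on the log2 scale, with groups that overlap, and its counts may include reads of HNRNPA1. The 74 annotated HNRNPA1 pseudogenes held 0.485 to 0.672% of the HNRNPA1 count in vehicle and 0.481 to 0.688% in nutlin.

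HNRNPC, which binds runs of uridine, ran from 1008 to 1292 CPM in vehicle (median 1129) and from 586 to 708 CPM in nutlin (median 624, log2 fold change -0.82 ± 0.04). HNRNPK, which binds runs of cytidine through KH domains, ran from 1138 to 1312 CPM (median 1193) and from 677 to 767 CPM (median 746, log2 fold change -0.70 ± 0.03). Both fell without overlap of the groups. HNRNPL, which binds CA repeats, was at 466 to 539 CPM (median 509) and at 283 to 324 CPM (median 307, log2 fold change -0.74 ± 0.04), and its paralogue HNRNPLL at 72.9 to 86.2 CPM (median 79.9) and at 37.2 to 46.1 CPM (median 43.3, log2 fold change -0.90 ± 0.04). HNRNPM was at 582 to 661 CPM (median 614) and at 269 to 306 CPM (median 292, log2 fold change -1.09 ± 0.03), and HNRNPR, a relative of SYNCRIP, at 584 to 682 CPM (median 624) and at 262 to 283 CPM (median 271, log2 fold change -1.20 ± 0.03). These 4 genes were likewise separate in all libraries.

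The F and H proteins bind runs of guanosine, and all 4 fell. HNRNPF lay at 216 to 258 CPM in vehicle (median 232) and at 132 to 155 CPM in nutlin (median 150.3, log2 fold change -0.66 ± 0.04), and HNRNPH3 at 325 to 373 CPM (median 349) and at 218 to 239 CPM (median 227, log2 fold change -0.61 ± 0.03). HNRNPH2 lay at 69.2 to 88.4 CPM (median 77.2) and at 47.7 to 57.4 CPM (median 50.8, log2 fold change -0.60 ± 0.04). HNRNPH1 had the smallest fall of the 4, by 0.29 ± 0.03 on the log2 scale (adjusted p = 2.2e-09), from 728 to 832 CPM to 591 to 664 CPM. Its groups overlapped in TPM, at 690 to 826 TPM in vehicle and 618 to 739 TPM in nutlin. Over 9 alternatives its log2 fold change ran from -0.29 to -0.11 and kept its call.

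The U proteins bind RNA and chromatin, and HNRNPU is also known as scaffold attachment factor A. HNRNPU ran from 1411 to 1628 CPM in vehicle (median 1476) and from 821 to 882 CPM in nutlin (median 843, log2 fold change -0.80 ± 0.03), and HNRNPUL1 from 535 to 625 CPM (median 572) and from 309 to 348 CPM (median 331, log2 fold change -0.79 ± 0.03). HNRNPUL2 was at 223 to 254 CPM (median 235) and at 96.0 to 118 CPM (median 107, log2 fold change -1.14 ± 0.04). The readthrough gene HNRNPUL2-BSCL2 was at 142 to 182 CPM (median 154) and at 72.4 to 97.5 CPM (median 80.1, log2 fold change -0.92 ± 0.05). It overlaps HNRNPUL2 and BSCL2 on the same strand, so reads of the 3 cannot be fully told apart, and BSCL2 itself fell by 1.11 on the log2 scale. The last 5 HNRNP genes were at or near 0: HNRNPCL1 reached at most 0.0688 CPM and was not called (adjusted p = 0.988), and HNRNPCL2, HNRNPCL3, HNRNPCL4 and HNRNPA1L3 did not have a count in each condition and were not tested.

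Several members overlap a gene on the opposite strand, and the strand setting of the quantification is not given in the sources used here, so reads of the overlap cannot be assigned with certainty. DYNLL1, opposite SRSF9, fell by 1.02 on the log2 scale, and CBX3, opposite HNRNPA2B1, by 1.06. COX20, opposite HNRNPU, fell by 0.73. Others rose: RUFY2, opposite HNRNPH3, by 0.65, NFE2L2, opposite HNRNPA3, by 0.57, GATC, opposite SRSF9, by 0.23 and TGFB1, opposite HNRNPUL1, by 0.92. MFSD11, opposite SRSF2, had a log2 fold change of 0.06 (adjusted p = 0.375).

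The second question was whether the transcripts of a gene moved alike. Estimated counts were summed per gene and annotated class, and the share of each class was tested within its gene by the edgeR diffSpliceDGE quasi-likelihood test. The share of the NMD class rose in 15 of the 23 members tested and fell in 0 (8 did not pass the test), whereas over all 5460 NMD classes tested 12.8% rose and 2.77% fell. It rose in 10 of 11 SRSF genes and in 5 of 12 HNRNP genes. For 10 of the 23 every nutlin library was above every vehicle library, which held for 2.14% of all NMD classes. The protein_coding share fell in 11 of 28 members tested and rose in 0, beside 2.37% and 0.952% of all such classes. The shares of a gene's classes sum to the whole gene. A lower coding share therefore follows from higher shares of the other classes and is not a separate result. The median log2 change of the NMD class relative to its gene was 0.63 over the members and 0.22 over all NMD classes. The shares called over all genes and classes include any with at least 1 count in each condition. They were not matched for the abundance of the members.

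At an unadjusted p under 0.05, 0 NMD shares of members fell and 16 rose, and limma diffSplice likewise called 0 falls. The annotated class is a label of the transcript model, not a measurement of decay. A share of estimated counts weights long transcripts more than short ones, and on shares of TPM, which do not, 17 of the 20 classes named here for NMD or intron retention kept their call and direction. HNRNPUL2-BSCL2 has 1 transcript, of the NMD class, and so no share to test.

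The NMD share of SRSF7 had the largest difference. It ran from 28.1 to 31.7% of the gene's estimated counts in vehicle (median 29.7%) and from 55.7 to 61.9% in nutlin (median 57.8%), a log2 change relative to the gene of 0.97 ± 0.04 (SE, adjusted p = 1.28e-29). As a share of TPM the class went from a mean of 24.3% to 43.7%, that of SRSF6 from 56.8% to 70.9% and that of SRSF1 from 25.1% to 34.3%. HNRNPDL ran from 3.42 to 5.96% (median 4.99%) and from 15.9 to 23.1% (median 20.6%, log2 change 2.03 ± 0.07), and SRSF3 from 2.31 to 4.57% (median 3.49%) and from 12.8 to 18.3% (median 15.8%, log2 change 2.17 ± 0.09). None of these 3 genes had overlapping groups.

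SRSF6 had an NMD share of 28.2 to 38.4% in vehicle (median 32.7%) and of 42.9 to 53.1% in nutlin (median 45.7%, log2 change 0.54 ± 0.06). SRSF2 had 13.6 to 27.7% (median 22.5%) and 29.2 to 37.1% (median 33.2%, log2 change 0.60 ± 0.09), and SRSF1 8.58 to 14.2% (median 11.5%) and 15.9 to 25.3% (median 20.9%, log2 change 0.84 ± 0.07). The libraries of these 3 genes were more spread but still separate. SRSF5 went from 18.1 to 23.3% (median 20.1%) to 22.6 to 27.0% (median 25.3%, log2 change 0.31 ± 0.06), with overlap.

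Smaller NMD classes moved in the same direction. HNRNPL went from 1.73 to 3.87% (median 3.26%) to 4.35 to 7.97% (median 5.44%, log2 change 0.81 ± 0.09), HNRNPD from 1.25 to 2.29% (median 1.71%) to 2.63 to 5.27% (median 4.46%, log2 change 1.31 ± 0.11), and SRSF4 from 1.80 to 3.06% (median 2.35%) to 3.72 to 5.38% (median 4.59%, log2 change 0.93 ± 0.14), each without overlap. The other 5 that passed were SRSF9, SRSF10, SRSF11, HNRNPM and HNRNPU, with class means between 10.2 and 102 counts. HNRNPA1 was not among them: its NMD share, 21.0 to 26.0% in vehicle and 22.6 to 28.2% in nutlin, had a log2 change of 0.07 ± 0.05 (adjusted p = 0.625).

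**Figure D3:**
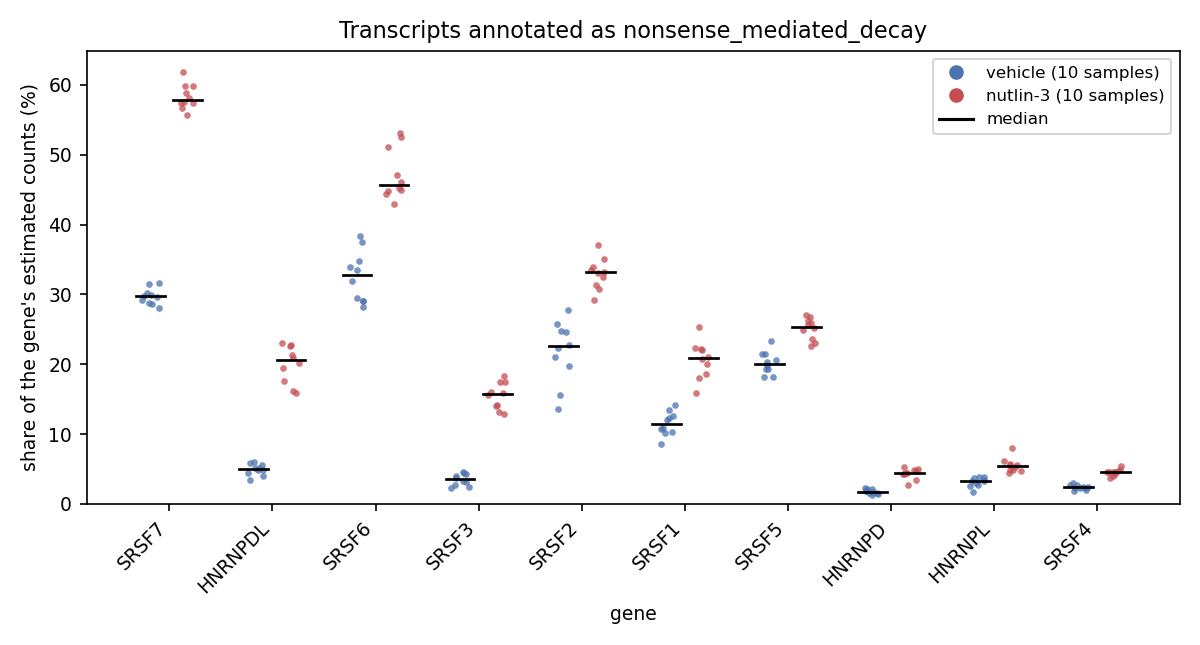
Share of the gene's estimated counts in transcripts annotated as nonsense_mediated_decay, in percent, for each of the 20 libraries, with bars at the group medians, for the 10 members with the largest differences. Every gene but SRSF5 has all nutlin libraries above all vehicle libraries.

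Retained-intron transcripts gave a similar count. Their share rose in 16 of the 24 members tested and fell in 0, beside 11.8% and 1.89% of the 7936 retained-intron classes tested over all genes. It rose in 6 of 10 SRSF genes and in 10 of 14 HNRNP genes, and the groups were separate in 10 of the 24, beside 5.15% of all such classes. The median log2 change relative to the gene was 0.79 over the members and 0.21 over all retained-intron classes. At an unadjusted p under 0.05, 0 fell and 18 rose, and limma diffSplice also called 0 falls.

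SRSF9 had a retained-intron share of 10.4 to 13.5% in vehicle (median 12.1%) and of 19.0 to 27.5% in nutlin (median 22.5%, log2 change relative to the gene 0.89 ± 0.11). HNRNPH1, with 19 annotated retained-intron transcripts, had 37.2 to 42.6% (median 39.5%) and 47.0 to 53.3% (median 48.6%, log2 change 0.32 ± 0.10, adjusted p = 0.015), a call lost in 1 of 6 alternatives (adjusted p = 0.14). HNRNPL had 15.8 to 19.0% (median 17.7%) and 25.8 to 28.0% (median 27.3%, log2 change 0.62 ± 0.05). All 3 genes were without overlap, and HNRNPL had the narrowest groups.

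SRSF4 went from 7.34 to 12.1% (median 9.57%) to 14.6 to 21.4% (median 19.6%, log2 change 0.95 ± 0.07), and HNRNPA2B1 from 5.13 to 6.21% (median 5.49%) to 11.6 to 13.9% (median 12.5%, log2 change 1.17 ± 0.04, adjusted p = 5.45e-32). SRSF10 went from 25.2 to 29.9% (median 28.1%) to 32.6 to 38.0% (median 34.6%, log2 change 0.32 ± 0.05). These 3 were again separate in all libraries.

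SRSF3 went from 28.2 to 31.8% (median 29.4%) to 32.7 to 39.9% (median 35.2%, log2 change 0.26 ± 0.06), but as a share of TPM its class went from a mean of 39.0% to 36.6% and did not pass (log2 odds -0.14, adjusted p = 0.303). SRSF11 was at 16.1 to 24.8% (median 20.9%) and 21.3 to 31.1% (median 26.1%, log2 change 0.31 ± 0.08). HNRNPU was at 16.4 to 20.2% (median 17.7%) and 17.97 to 22.5% (median 20.8%, log2 change 0.19 ± 0.05). Both overlapped between groups and did not pass on TPM shares either (adjusted p = 0.432 and 0.0958). In total the SRSF11 call was lost in 2 of 6 alternatives and the HNRNPU call in 3 of 6 (adjusted p up to 0.22 for HNRNPU). SRSF2 went from 1.23 to 5.08% (median 2.30%) to 3.86 to 8.76% (median 6.39%, log2 change 1.39 ± 0.17), with overlap. The other 6 that passed were HNRNPAB, HNRNPC, HNRNPD, HNRNPK, HNRNPM and HNRNPUL1, with class means between 27.3 and 253 counts.

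**Figure D4:**
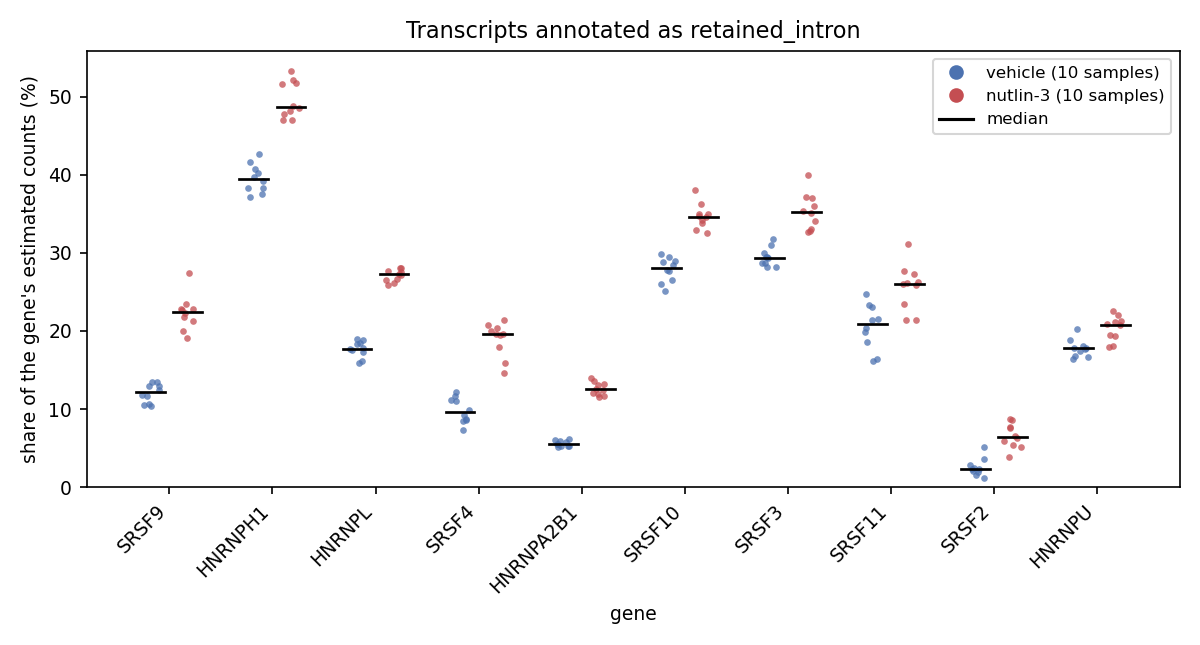
Share of the gene's estimated counts in transcripts annotated as retained_intron, in percent, for each of the 20 libraries, with bars at the group medians, for the 10 members with the largest differences. SRSF11, SRSF2 and HNRNPU overlap between groups and the other 7 do not.

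A share can rise because its class rises or because the rest of the gene falls, so the level of each class was also tested. The protein_coding class fell in 31 of the 34 members tested and rose in 1, SRSF8, beside 36.4% and 29.3% of all such classes. The NMD class rose in 7 and fell in 6 of 24, beside 19.3% and 11.3% of all NMD classes. The retained-intron class rose in 2, HNRNPH1 and SRSF4, and fell in 6 of 24, beside 27.6% and 11.7% of all retained-intron classes. The call of HNRNPH1 was lost in 2 of 5 alternatives (adjusted p up to 0.18) and that of SRSF4 in 1 (0.0867), so that neither rose in the fit with the replicate block. The coding transcripts of the members thus fell in nearly every gene, while the other classes rose in some and fell in others.

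The 7 NMD classes whose own level rose were those of SRSF3, SRSF4, SRSF5, SRSF6, SRSF7, SRSF11 and HNRNPDL. The calls of SRSF5 and SRSF4 were lost in 2 and 1 of 5 alternatives (adjusted p up to 0.202 and 0.0631), and their only NMD transcripts, SRSF5-211 and SRSF4-205, did not pass the transcript-level test (adjusted p = 0.248 and 0.0622). SRSF3 rose by a log2 fold change of 1.38 ± 0.10 (SE, adjusted p = 2.66e-11) while its coding class fell by 1.23 ± 0.05. HNRNPDL rose by 1.27 ± 0.09 while its coding class fell by 1.01 ± 0.04. In SRSF7 the NMD class rose by only 0.19 ± 0.04, and the coding class had the largest fall of any member, by 1.57 ± 0.04. SRSF2 was different, with both classes lower, the NMD class by 0.49 ± 0.10 and the coding class by 1.41 ± 0.03. SRSF11, whose gene total was not called, had a coding class that fell by 0.32 ± 0.06 and an NMD class that rose by 0.68 ± 0.16 (adjusted p = 0.00112).

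**Figure D5:**
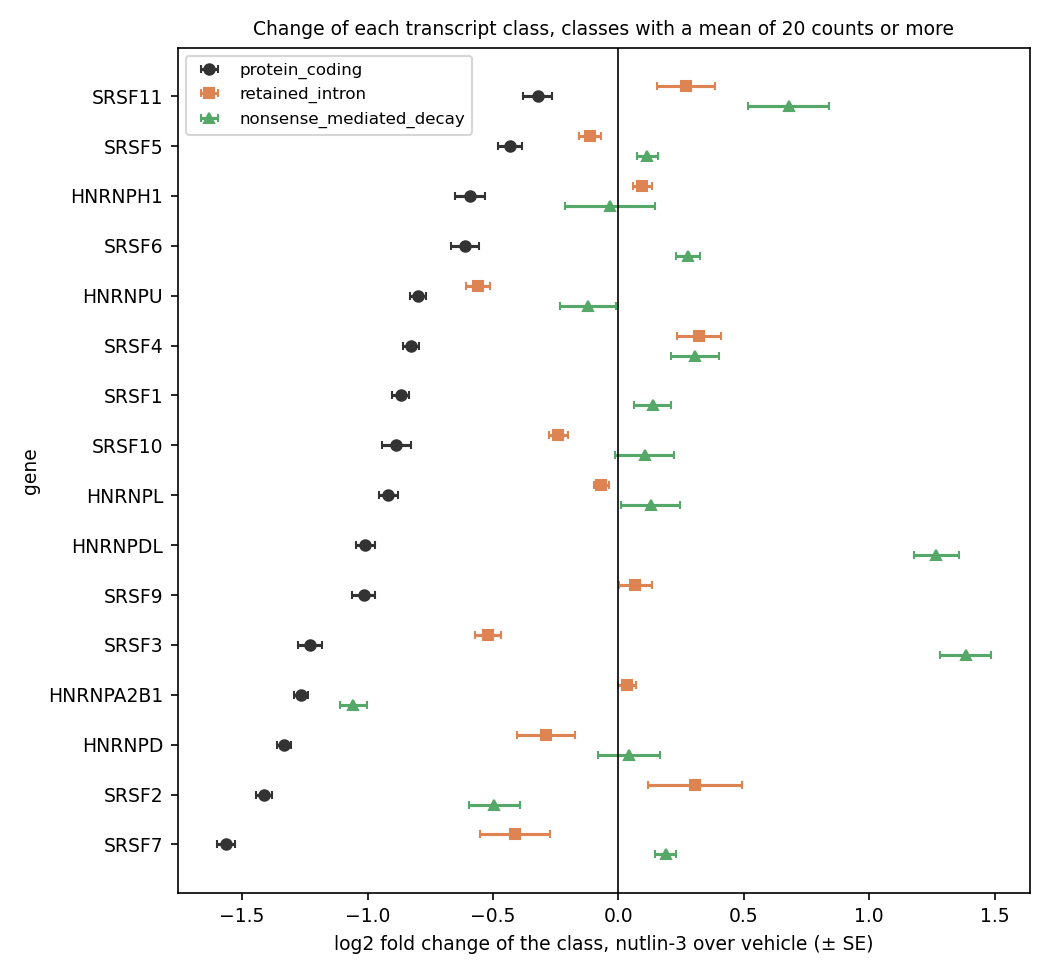
Log2 fold change, nutlin-3 over vehicle, with its standard error, of the protein_coding (circles), retained_intron (squares) and nonsense_mediated_decay (triangles) class of each of 16 members, for classes with a mean of at least 20 counts. The circles are all below 0, from -0.32 for SRSF11 to -1.57 for SRSF7, while squares and triangles lie on both sides of 0.

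Of 376 member transcripts, 334 could be tested for usage, and 37 took a larger and 16 a smaller share of their gene, beside 2.21% and 1.03% of the 100112 transcripts tested. As levels, 29 rose and 112 fell of 340 tested, beside 12.7% and 10.7% of all transcripts. Of the 37 with a larger share, 13 were protein_coding, 12 NMD and 11 retained-intron transcripts, and of the 16 with a smaller share 15 were protein_coding. Transcripts of a gene share most of their exons, and kallisto divides their reads by likelihood, so single transcripts are less certain than classes.

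In SRSF7, the canonical SRSF7-201 ran from 21.6 to 33.1% of the gene's estimated counts in vehicle (median 29.0%) and from 3.51 to 8.15% in nutlin (median 5.16%, log2 usage change -2.35 ± 0.09). SRSF7-204, whose stop codon is shown above, ran from 5.23 to 8.01% (median 6.64%) and from 25.4 to 32.4% (median 29.8%, log2 change 2.14 ± 0.09). SRSF7-201 was the larger of the 2 in vehicle and SRSF7-204 in nutlin. In SRSF2, the canonical SRSF2-202 ran from 37.9 to 47.0% (median 40.9%) and from 4.12 to 10.8% (median 7.48%, log2 change -2.47 ± 0.17), its level falling by 3.60 ± 0.13 on the log2 scale. The longer coding SRSF2-203 took up 31.6 to 37.1% (median 34.2%) and 50.5 to 56.4% (median 52.4%, log2 change 0.63 ± 0.16), and SRSF2-204, which splices beyond the stop codon, 1.86 to 6.64% (median 4.76%) and 12.5 to 16.9% (median 14.9%, log2 change 1.67 ± 0.20). All 5 transcripts were separate between the groups.

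SRSF3-203, with its stop in the 456-base exon, ran from 1.02 to 2.79% (median 1.88%) and from 11.1 to 15.9% (median 12.7%, log2 change 2.83 ± 0.14), and its level rose by 2.01 ± 0.12 on the log2 scale. The canonical SRSF3-202 ran from 28.5 to 41.7% (median 36.0%) and from 21.9 to 30.1% (median 25.5%, log2 change -0.49 ± 0.10), with overlap, and its usage call was lost in 2 of 4 alternatives (adjusted p up to 0.131). Those of SRSF2-203 and SRSF6-202 were lost in 1 of 4 (adjusted p = 0.11 and 0.094). SRSF6 has a single NMD transcript, SRSF6-202, so its share is that of the class given above, and SRSF4-207, an 8128-base retained-intron transcript, ran from 6.80 to 11.3% (median 8.94%) and from 14.02 to 19.95% (median 19.0%, log2 change 0.96 ± 0.12). SRSF1-204, shown above, went from a mean of 3.75% to 11.4%, and SRSF4-205 from 2.38% to 4.54%.

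In HNRNPDL, the most abundant coding transcript HNRNPDL-206 ran from 49.3 to 60.3% in vehicle (median 53.3%) and from 27.9 to 41.7% in nutlin (median 33.1%, log2 change -0.69 ± 0.15). HNRNPDL-202 ran from 2.77 to 4.69% (median 3.48%) and from 13.9 to 20.6% (median 18.6%, log2 change 2.33 ± 0.19). The groups were separate for both. In HNRNPH1, the canonical HNRNPH1-203 ran from 7.06 to 20.7% (median 13.6%) and from 0.00 to 6.55% (median 1.68%, log2 change -2.62 ± 0.23), 1 nutlin library being near 0. Its log2 usage change was between -4.51 and -2.37 over 4 alternatives and its level change between -4.56 and -2.65 over 5, and the usage change of SRSF2-202 was between -3.20 and -2.39.

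The most abundant coding transcript of each of the 16 genes named for a class fell as a level in all 16. Its share passed the usage test in 5 of the 16, beside 2.21% of all transcripts called higher and 1.03% lower. The 16 genes were picked because another class of the gene had gained share, which favours a lower coding share. It fell in HNRNPDL-206 and SRSF3-202, described above, in SRSF5-217 (mean 17.8% to 10.3%, adjusted p = 0.000422) and in SRSF11-203 (log2 change -0.62, adjusted p = 0.0141), and it rose in SRSF2-203. The other 11 did not pass, with log2 usage changes from -0.35 to -0.07 (adjusted p 0.182 to 0.985). They were HNRNPA2B1-202, HNRNPD-203, HNRNPH1-204, HNRNPL-210, HNRNPU-201, SRSF1-205, SRSF10-203, SRSF4-201, SRSF6-201, SRSF7-202 and SRSF9-201. Not passing did not mean an unchanged share. In HNRNPA2B1-202, HNRNPL-210, SRSF1-205, SRSF4-201, SRSF6-201 and SRSF9-201 every nutlin share was below every vehicle share. SRSF6-201 is the only coding transcript of SRSF6, and the coding class of that gene passed the diffSpliceDGE test of classes (adjusted p = 2.28e-06).

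Summed over each family, NMD transcripts took 13.3% ± 1.5 (SD, n = 10) of the SRSF counts in vehicle and 21.3% ± 1.0 in nutlin, and 7.36% ± 0.70 and 10.2% ± 0.7 of the HNRNP counts. Retained-intron transcripts took 11.6% ± 0.5 and 15.4% ± 0.8 of the SRSF counts and 5.23% ± 0.33 and 7.51% ± 0.34 of the HNRNP counts. The groups were separate in all 4. Over the protein-coding genes without the members, NMD transcripts took 3.45% ± 0.04 and 3.74% ± 0.04, and retained-intron transcripts 5.59% ± 0.14 and 6.82% ± 0.20.

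Genes that work with these factors were counted from 4 lists, to be read against the 38.5% of protein-coding genes that fell and the 32.4% that rose. Those percentages were not matched for the abundance of the listed genes. Of 33 core spliceosome genes, 32 fell, 0 rose and SNRNP70 did not pass (log2 fold change -0.05, adjusted p = 0.301), with a median of -0.54. DESeq2 and limma voom also called 0 of them higher, and 0 were higher at an unadjusted p under 0.05. SNRPG and SNRPB, Sm proteins of the spliceosomal particles, fell by 1.75 ± 0.11 and 1.16 ± 0.06 on the log2 scale, from medians of 198 to 56.2 CPM and of 374 to 168 CPM. Of 17 kinases and partners of SR proteins, 9 fell and 6 rose. TRA2B, an SR-like splicing activator, fell by 0.92 ± 0.03 (340.4 to 181 CPM) and TNPO3, which imports SR proteins into the nucleus, by 0.70 ± 0.03 (114 to 71.3 CPM). The kinases of SR proteins went both ways. CLK1 and CLK4 rose by 0.48 ± 0.04 (73.7 to 101 CPM) and 0.41 ± 0.06 (13.4 to 19.1 CPM). SRPK1 and SRPK2 fell by 0.69 ± 0.03 (186 to 118 CPM) and 0.64 ± 0.04 (43.2 to 27.8 CPM), and are named here after their values were seen. The same holds for the other listed kinases, which did not follow these pairs throughout. CLK3 and DYRK1A rose by 0.37 and 0.20 on the log2 scale, and CLK2 and PRPF4B fell by 0.16 and 0.18. SRPK3 did not pass (log2 fold change 0.06, adjusted p = 0.63).

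Of 36 other splicing regulators, 34 were tested, and 21 fell and 11 rose. QKI and MBNL2 each fell by 1.14 on the log2 scale (SE 0.07 and 0.08), from medians of 86.2 to 37.9 CPM and of 33.8 to 15.4 CPM. RBFOX1, a neuronal splicing regulator, rose by 1.14 ± 0.03 (24.8 to 55.2 CPM), and CELF6 by 2.18 ± 0.41 at low level (0.385 to 1.97 CPM). Of 15 genes of nonsense-mediated decay and the exon junction complex, 7 fell, 5 rose and 3 did not pass (UPF1, UPF2 and EIF4A3). EIF4A3 had the lowest counts of the 15, with a mean of 3.29 CPM and a log2 fold change of -0.16 ± 0.14 SE. Its count holds only transcripts matched to the annotation used here, and whether any of its transcripts were left out was not tested. Its value is therefore not a measure of the whole gene's level. MAGOHB and MAGOH, core subunits of the exon junction complex, fell by 1.36 ± 0.06 (34.6 to 13.6 CPM) and 1.16 ± 0.05 (48.8 to 22.4 CPM), and the decay factors UPF3A and SMG9 rose by 0.60 ± 0.03 (92.3 to 139 CPM) and 0.50 ± 0.04 (38.2 to 54.0 CPM).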

How the data were processed

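RNA of NGP cells was selected by poly(A) and sequenced by the authors as stranded, paired-end libraries, and quantified with kallisto v0.42.4 on Ensembl transcripts of hg38. The authors deposited estimated counts per transcript with no normalization, TPM values (estimated counts scaled by effective length and library size), and other values, the lengths and effective lengths in bases. Transcripts were matched without version number to GENCODE release 44, a later release than the authors used, whose transcript types gave the classes, and 7862 of 198968 transcripts were left out. Estimated counts were summed per gene and per class and rounded.

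Levels were tested with edgeR 4.0.16 (TMM, quasi-likelihood F-test) and shares with diffSpliceDGE, over all genes, classes or transcripts with at least 1 count in each condition, with Benjamini-Hochberg adjustment at 5% FDR. DESeq2 1.42.0 and limma 3.58.1 served as alternatives. Usage changes are relative to the whole gene and on the log2 scale. CPM uses TMM-scaled libraries. The scripts were tested on simulated data. Tests of class levels, of the 16 samples with a shared number without the block, and without vehicle replicate 4 were added after seeing the data. Samples were grouped by their labels, and the p-values measure the spread between the 10 samples of each group.

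Members and lists were chosen with earlier results of these data known. Genes with values by group were those called with an absolute log2 fold change of at least 0.5 and a mean of at least 1 CPM. Classes were the 10 of each kind with the largest difference in share among those called with a mean of at least 20 counts. Transcripts were the 12 with the largest difference by the same minimum, and the most abundant coding transcript of each gene so named. List genes were the 2 called up and 2 called down with the largest change. The stop codons shown were chosen after the shares were seen. Depth limits classes and transcripts with few counts.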

Additional observations from a re-analysis of the deposited data

Results flagged for a closer look

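Of 120 groups of 10 samples examined for the named genes, classes and transcripts, 7 held a sample far from the other 9 by Dixon's criterion, which chance alone does in about 1 group in 20. HNRNPAB was at 319.6 CPM in vehicle replicate 4, below the other 9 at 467 to 552 CPM. HNRNPH2 was at 88.4 CPM in the same library, above the others at 69.2 to 79.4 CPM. HNRNPC was at 1292 CPM in vehicle replicate 10 (others 1008 to 1158 CPM) and at 708 CPM in nutlin replicate 6 (others 586 to 650.2 CPM). SRSF9 was at 149 CPM in nutlin replicate 6 (others 111 to 126 CPM). The NMD share of HNRNPL was 7.97% in nutlin replicate 9 (others 4.35 to 6.20%), and the retained-intron share of SRSF9 was 27.5% in nutlin replicate 2 (others 19.0 to 23.5%). None of these libraries crossed into the range of the other condition.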

How the results depend on the processing

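Of the counts of members given in the report, 85 of 90 recomputed values stayed within 1.5 times the reported count. The exceptions were the transcripts with a larger or smaller share, 60 and 37 by limma diffSplice, and the retained-intron classes whose level rose, 4 with a mean of at least 10 counts, 1 in the 16 samples that share a replicate number, and 0 in those samples with the replicate block. Of 641 recomputed values for single genes, classes and transcripts, 614 kept direction and call, 24 lost the call, 2 gained it, and 1 turned direction, the retained-intron share of SRSF3 at -0.14 on TPM shares. The causes were not tested, beyond the smaller number of samples or genes that some alternatives use.

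Same-numbered samples did not deviate together (8 pairs, r from -0.04 to 0.08, 1 best matched to its own number), and the main tests did not pair them. The labels do not say what the numbers stand for. With the replicate block 31 members fell and 1 rose at gene level, as without it in the same 16 samples. HNRNPA1 was the member whose gene-level call was lost, at -0.06 with the block (adjusted p = 0.277). DESeq2 size factors moved the median of all genes by 0.05 on the log2 scale. Counts near 0, as in the HNRNPCL genes, cannot show a difference at this depth.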

Other observations

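The promoters of the members, taken from RefSeq on GRCh38.p14 as 300-base windows around the start of each gene, were searched for the letters CACGTG, the E-box that MYC-family factors are known to bind and which reads the same on both strands. Of the 35 members with a window, 7 held it, which is 20%, beside 7.43% of all 27305 windows and 9.34% of the windows of protein-coding genes tested here. The 7 were HNRNPA3, HNRNPD, HNRNPDL, HNRNPH2, HNRNPH3, HNRNPM and HNRNPUL1. The 35 members with a window are not the 35 tested at gene level. SRSF2 and HNRNPA1 had no window, and HNRNPCL2 and HNRNPCL4, which were not tested, had one. The sets of windows were not matched for abundance. MYCN, which this line carries in extra copies, was at 3467 to 4243 CPM in vehicle and 2586 to 3000 CPM in nutlin (log2 fold change -0.41 ± 0.04 SE), with no overlap. A match is a description of the letters in the window, and the motif was chosen after the data were seen. Whether MYCN had a part in the changes of the members was not tested.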
